A study of Arabidopsis thaliana with 33 samples.

Results

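The genes described here are 10 nuclear genes of chlorophyll synthesis in Arabidopsis: HEMA1, GUN4, CHLH, CHLI1, CHLM, CRD1, PORA, PORB, PORC and CAO. They were found by their gene identifiers among the 33557 genes of the deposited mRNA table, and all 10 were listed and reached 1 FPKM in at least 1 genotype. FPKM is a level: read fragments scaled to the length of the transcript and to the number of fragments mapped in the library. Poly(A) RNA came from the aerial parts of untreated plants aged 20 days, which were moved from MS medium to soil after 6 days, stayed there for 14 days and were all harvested at 15:00. The genotypes were ein5-1 dcl4-2 and ski2-2 dcl4-2, the triple mutant ein5-1 dcl4-2 dcl2-1 and its counterpart ski2-2 dcl4-2 dcl2-1, the mutants ein5-1 dcl2-1 and ski2-2 dcl2-1, single mutants of each gene (ein5-1, ski2-2 and the Dicer alleles dcl4-2 and dcl2-1), and the wild type Col-0. Each of the 11 genotypes had 3 libraries, 33 in all, which the series text calls biological replicates. Each mutated gene is represented by 1 allele, and a sample is a whole shoot, in which fewer cells of a type and less RNA per cell cannot be told apart.

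EIN5 degrades decapped cytoplasmic RNA from its 5′ end, and SKI2 is the helicase that threads RNA into the cytoplasmic exosome for decay from the 3′ end. The Dicer-like enzymes DCL4 and DCL2 each make small interfering RNAs from long RNA duplexes. The title of the series names siRNAs of the length that DCL2 makes, together with translational repression and stress adaptation.

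Chlorophyll is made in the plastid from glutamate by nuclear-encoded enzymes. Glutamyl-tRNA is turned into 5-aminolevulinic acid (ALA), molecules of ALA are joined and oxidised into protoporphyrin IX, and the pathway then splits into an iron branch that leads to haem and a magnesium branch that leads to chlorophyll. The magnesium branch needs tight control because its free intermediates form singlet oxygen in light, and transcription of its genes follows light and the circadian clock in green leaves.

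The deposited table gave 1 pooled FPKM per gene and genotype with no value per library, so values are given without SD or n, and neighbouring levels in any order of genotypes cannot be compared with a replicate spread. In 8 comparisons a log2 ratio and a q, the p-value after correction for multiple testing, came with the FPKM in the authors' deposited table. Rose and fell are used here only where that q was 0.05 or less, the deposited log2 ratio was 1 or more in size, and the gene reached 1 FPKM in a compared genotype. For 10 further comparisons there was no test, and genes are called higher or lower by size alone, at a difference of 1 or more in log2(FPKM + 1). Several comparisons share a genotype and its libraries (Col-0, or a mutant that serves on either side), so their values are given side by side and are not independent of each other.

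FPKM summed over all genes was 753957 in ski2-2 dcl4-2 and up to 1352350 in ein5-1 dcl2-1. The 4 carriers of ein5-1 had 6.88 to 11.2 FPKM of EIN5 mRNA, against 13.4 to 20.8 FPKM in the 7 genotypes that lack the allele. The 5 carriers of dcl2-1 had 1.23 to 2.35 FPKM of DCL2 mRNA, against 4.89 to 9.02 FPKM in the other 6. SKI2 (2.62 to 3.90 FPKM with ski2-2, 2.82 to 6.91 FPKM without) and DCL4 (2.98 to 4.89 FPKM with dcl4-2, 3.15 to 6.91 FPKM without) overlapped between carriers and the rest, so mRNA level does not check those alleles. Of 4 leaf markers (RBCS1A, CA1, LHCB1.3, RCA), all present in Col-0, the summed level was 9508 FPKM in ein5-1 dcl4-2, 17799 FPKM in ski2-2 dcl4-2 and 26251 FPKM in dcl2-1, where LHCB1.3 was listed at 0, against 40165 to 75854 FPKM in the other 8 genotypes, Col-0 the highest. LHCB1.3 had 5011 FPKM or more in every other genotype, so the low sum in dcl2-1 rests on that 0. In dcl2-1, RBCS1A (20781 FPKM) and CA1 (2279 FPKM) lay within the range of those 8 genotypes. RCA, at 3191 FPKM in dcl2-1, was just under their lowest level, 3354 FPKM in ski2-2 dcl2-1. Of 4 root markers (IRT1, PYK10, TIP2;3, SHR) the sum was 269 FPKM in ein5-1 dcl4-2 and 749 FPKM in ski2-2 dcl4-2, against 26.5 to 83.2 FPKM in the other 9. Most of these 2 sums was PYK10, at 254 and 673 FPKM. IRT1 was at 1.09 and 60.6 FPKM in the same 2 mutants, against 0.253 FPKM in Col-0. TIP2;3 was at 6.13 and 8.33 FPKM, against 0.612 FPKM in Col-0. SHR went the other way, at 7.58 and 7.10 FPKM, against 11.1 FPKM in Col-0.

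In ein5-1 dcl4-2 and ski2-2 dcl4-2, chlorophyll synthesis mRNAs were lower than in Col-0, and only PORB in ski2-2 dcl4-2 did not pass the call. All 10 genes fell in ein5-1 dcl4-2 relative to Col-0 and none rose, where 16.3% of the genes tested fell and 20.4% rose. In ski2-2 dcl4-2 relative to Col-0, 9 of the 10 fell and none rose, beside 13.8% and 15.1% of all genes. The summed level of the 10 was 899 FPKM in ein5-1 dcl4-2 and 1605 FPKM in ski2-2 dcl4-2, against 5873 FPKM in Col-0, or 0.0934%, 0.213% and 0.472% of the FPKM sum. The median difference in log2(FPKM + 1) over the 10 was -2.69 in ein5-1 dcl4-2 and -1.87 in ski2-2 dcl4-2, against Col-0, while the median over all genes tested was 0.13 and 0.06. Of the 80 pairs of a member and a tested comparison 72 were called, 71 of them at the smallest q of the authors' deposited table, which is 0.000201 where ein5-1 is involved and 0.000211 where ski2-2 is, and gives no ranking. With quantile normalization PORC, CRD1 and CAO were under the size threshold in ski2-2 dcl4-2 relative to Col-0 and to dcl4-2, which leaves 6 members that fell in each. The 4 leaf markers fell in the same 2 comparisons and 2 of the 4 root markers, PYK10 and TIP2;3, rose in both; the part of leaf and root tissue in the members' fall was not tested.

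**Figure D1:**
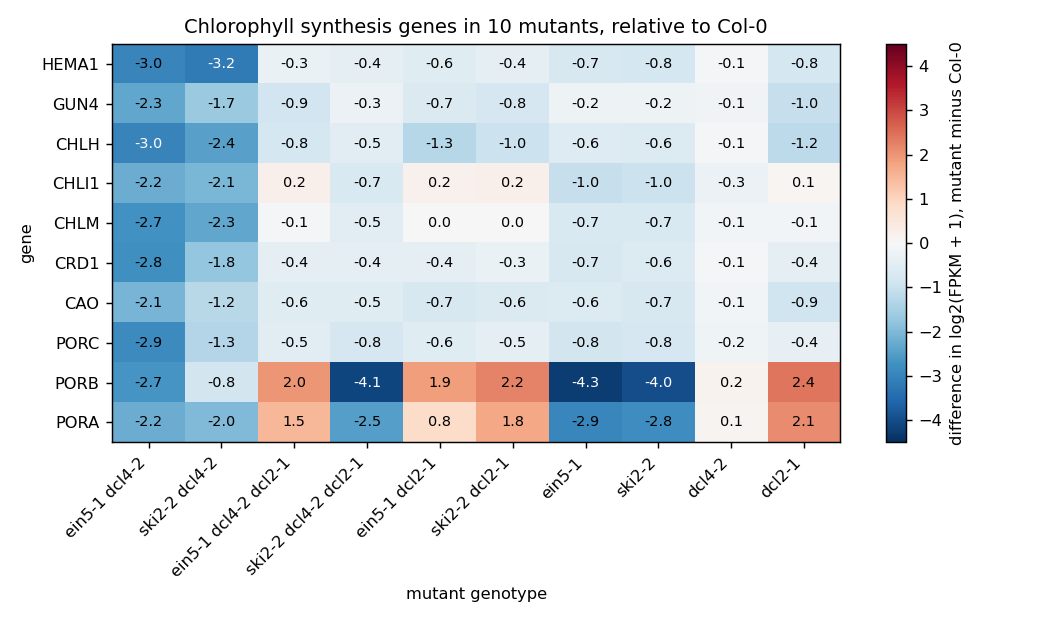
Difference in log2(FPKM + 1) between each of 10 mutants (columns) and Col-0 for the 10 chlorophyll synthesis genes (rows, in pathway order with the POR genes last), printed in each cell and shown as colour, with blue for lower and red for higher in the mutant. The first 2 columns, ein5-1 dcl4-2 and ski2-2 dcl4-2, are blue in every row, while PORB and PORA change colour between the other mutants.

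HEMA1 (AT1G58290, chr1:21623700-21626402, minus strand, TAIR10.1) encodes the main glutamyl-tRNA reductase of green tissue, which commits glutamate to ALA. It had 62.5 FPKM in ein5-1 dcl4-2 and 53.6 FPKM in ski2-2 dcl4-2, against 491 FPKM in Col-0, which is 7.85-fold and 9.16-fold lower. It was the only one of the 10 with its lowest level in ski2-2 dcl4-2. In the other mutants it had 394 FPKM in ein5-1 dcl4-2 dcl2-1, 365 FPKM in ski2-2 dcl4-2 dcl2-1, 333 FPKM in ein5-1 dcl2-1, 365 FPKM in ski2-2 dcl2-1, 299.5 FPKM in ein5-1, 282 FPKM in ski2-2, 459 FPKM in dcl4-2 and 279.9 FPKM in dcl2-1. These 8 and Col-0 spanned 1.75-fold, all of them well above ein5-1 dcl4-2 and ski2-2 dcl4-2. HEMA2, the second reductase gene, had 10.6 FPKM in ein5-1 dcl4-2 and 7.001 FPKM in ski2-2 dcl4-2, against 8.82 FPKM in Col-0, and was not called in either comparison. The ratio of HEMA1 to HEMA2 levels was accordingly 5.90 in ein5-1 dcl4-2 and 7.66 in ski2-2 dcl4-2, against 24.8 to 57.1 in the other 9 genotypes. HEMA1 and HEMA2 coding sequences are 79.9% identical with no identical run over 49 bases, shorter than the reads of 150 bases.

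Magnesium chelatase inserts magnesium into protoporphyrin IX at the branch point. Its large porphyrin-binding subunit is encoded by CHLH (AT5G13630, chr5:4387307-4392429, minus strand), its main ATPase subunit by CHLI1 (AT4G18480, chr4:10201672-10203469, minus strand), and GUN4 (AT3G59400, chr3:21948501-21949796, minus strand) encodes a porphyrin-binding protein that stimulates it. CHLH had 129.7 FPKM in ein5-1 dcl4-2 and 194 FPKM in ski2-2 dcl4-2, against 1051 FPKM in Col-0. GUN4 had 98.2 and 156 FPKM in ein5-1 dcl4-2 and ski2-2 dcl4-2, against 503 FPKM in Col-0. CHLI1 had 91.3 and 101 FPKM in the same 2 mutants, against 428 FPKM in Col-0. The falls in ein5-1 dcl4-2 were thus 8.11-fold for CHLH, 5.13-fold for GUN4 and 4.68-fold for CHLI1.

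Outside those 2 mutants the chelatase genes did not move alike. CHLH had 610.3 FPKM in ein5-1 dcl4-2 dcl2-1, 428 FPKM in ein5-1 dcl2-1, 535 FPKM in ski2-2 dcl2-1 and 469.6 FPKM in dcl2-1. It had 750.0 FPKM in ski2-2 dcl4-2 dcl2-1, 699 FPKM in ein5-1, 687 FPKM in ski2-2 and 1014 FPKM in dcl4-2. CHLI1 ran the other way across the same genotypes, with 496, 488, 502 and 459 FPKM in the first 4 and 264, 209, 219 and 357 FPKM in the next 4. GUN4 followed CHLH, at 245 to 317 FPKM in the first 4 and 423 to 456 FPKM in the next 4. The ratio of CHLH to CHLI1 levels was therefore 0.877 to 1.23 in ein5-1 dcl4-2 dcl2-1, ein5-1 dcl2-1, ski2-2 dcl2-1 and dcl2-1, against 2.46 to 3.34 in ski2-2 dcl4-2 dcl2-1 and in ein5-1, ski2-2, dcl4-2 and Col-0. It was 1.42 in ein5-1 dcl4-2 and 1.92 in ski2-2 dcl4-2, between these ranges. CHLI2, the less expressed copy, varied along with it: CHLI1 was 4.61 to 7.55 times CHLI2 in all 11 genotypes, and the pair is 80.6% identical in coding sequence, with no identical run over 44 bases.

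CHLM (AT4G25080, chr4:12876822-12878703, plus strand) encodes the methyltransferase that acts after the chelatase, and CRD1 (AT3G56940, chr3:21076505-21078443, plus strand) a subunit of the cyclase that closes the fifth ring. CHLM had 70.5 FPKM in ein5-1 dcl4-2 and 92.6 FPKM in ski2-2 dcl4-2, against 470.0 FPKM in Col-0. CRD1, the member with the highest level in Col-0, had 302 FPKM in ein5-1 dcl4-2 and 616 FPKM in ski2-2 dcl4-2, against 2076 FPKM in Col-0. CAO (AT1G44446, chr1:16848308-16851271, minus strand) encodes the oxygenase that makes chlorophyll b. It had 55.9 FPKM in ein5-1 dcl4-2 and 102 FPKM in ski2-2 dcl4-2, against 239.9 FPKM in Col-0. CAO moved least of the 10 in ein5-1 dcl4-2, by 4.29-fold. In the 9 genotypes other than ein5-1 dcl4-2 and ski2-2 dcl4-2, CHLM varied 1.64-fold, CRD1 1.66-fold and CAO 1.87-fold between the lowest and highest level.

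**Figure D2:**
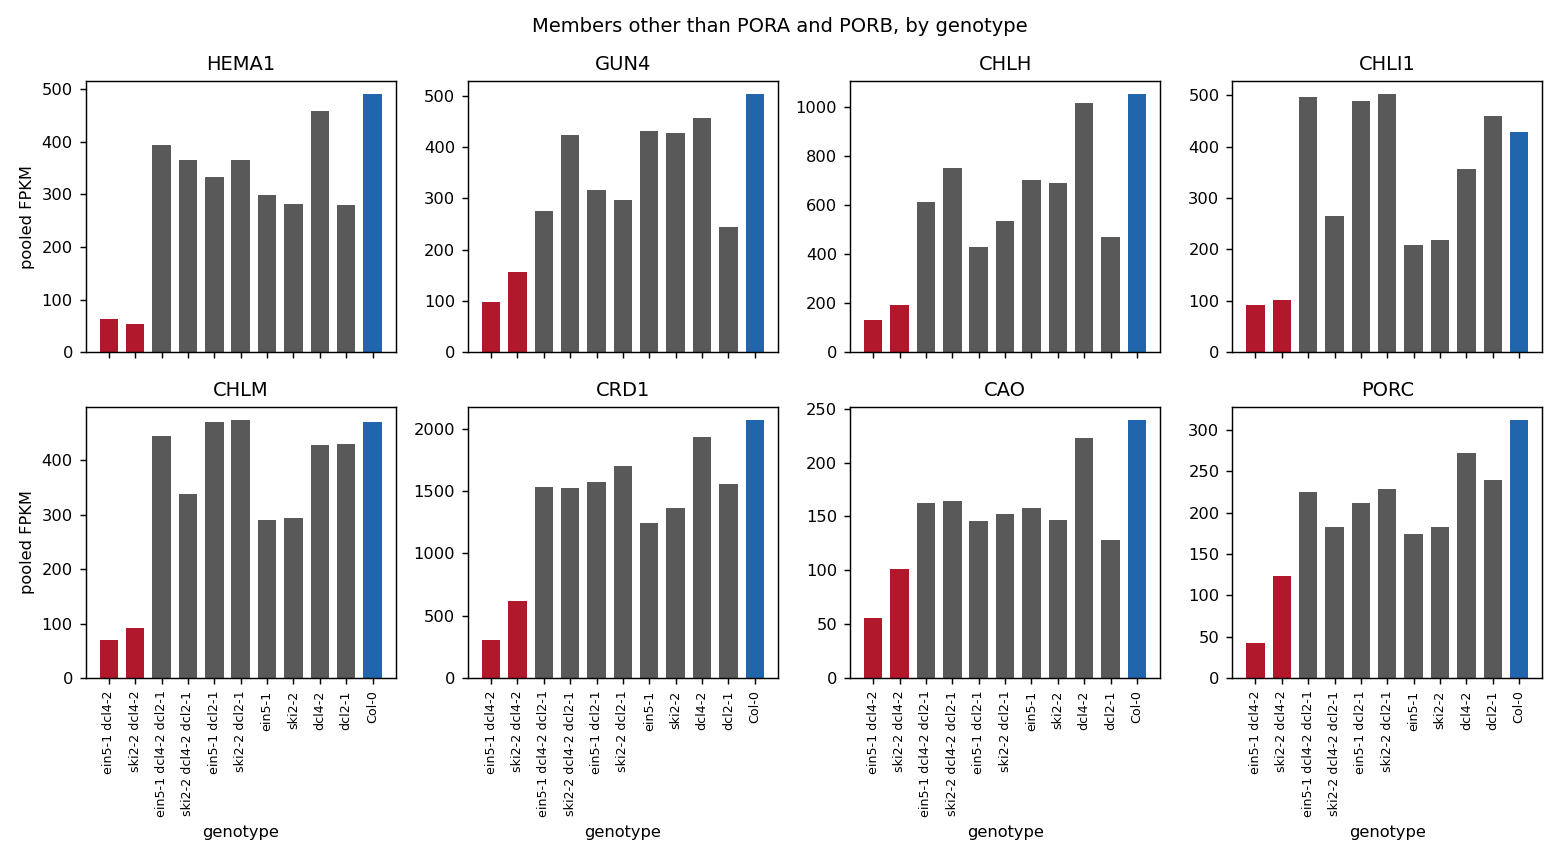
Pooled FPKM (vertical axes, from 0) of the 8 members other than PORA and PORB in 11 genotypes, 1 bar per genotype and no error bars because the table gives pooled values. Red bars are ein5-1 dcl4-2 and ski2-2 dcl4-2, grey bars the other mutants and the blue bar Col-0; the 2 red bars are the lowest in every panel.

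Protochlorophyllide oxidoreductase (POR) carries out the step of chlorophyll synthesis that needs light in flowering plants, and Arabidopsis has 3 genes for it. PORA is known as the form of dark-grown seedlings, PORB is made in dark and light, and PORC is the form of light-grown leaves. PORA is AT5G54190 (chr5:21990864-21992814, minus strand), PORB is AT4G27440 (chr4:13725546-13727440, plus strand) and PORC is AT1G03630 (chr1:907523-909650, plus strand). PORA and PORB coding sequences are 82.5% identical with no identical run over 44 bases, and PORC is 71.8% identical to PORA and 72.5% identical to PORB, so a read of 150 bases spans differences between them.

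The 250 bases before the annotated start of each POR gene are printed because PORA and PORB share a motif there that PORC lacks. They were read from the RefSeq copy of TAIR10.1, 5′ to 3′ on the strand of the gene; capitals mark matches to 6 motifs searched on both strands. PORA lies at chr5:21992815-21993064 (minus strand), PORB at chr4:13725296-13725545 (plus strand) and PORC at chr1:907273-907522 (plus strand).
PORA: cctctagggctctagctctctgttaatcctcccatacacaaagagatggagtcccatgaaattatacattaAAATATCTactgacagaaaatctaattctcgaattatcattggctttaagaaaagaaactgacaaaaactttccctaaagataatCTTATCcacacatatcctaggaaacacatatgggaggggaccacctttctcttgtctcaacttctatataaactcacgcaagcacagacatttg
PORB: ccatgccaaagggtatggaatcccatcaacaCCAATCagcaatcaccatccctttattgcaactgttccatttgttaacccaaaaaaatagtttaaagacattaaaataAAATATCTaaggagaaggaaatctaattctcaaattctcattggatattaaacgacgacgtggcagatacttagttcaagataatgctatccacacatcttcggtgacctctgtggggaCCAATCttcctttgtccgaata
PORC: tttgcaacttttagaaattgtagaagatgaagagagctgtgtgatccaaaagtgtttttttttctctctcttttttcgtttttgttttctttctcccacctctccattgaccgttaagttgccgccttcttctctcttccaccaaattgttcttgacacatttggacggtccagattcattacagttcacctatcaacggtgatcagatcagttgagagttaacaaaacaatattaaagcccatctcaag

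The evening element AAATATCT, a motif bound by clock proteins including CCA1 and LHY, began 179 bases before the start of PORA and 141 bases before that of PORB. It was in none of the other 8 members' windows, and in 4.79% of 27443 promoters of this length. The I-box GATAAG, here on the opposite strand as CTTATC, lay 94 bases before the start of PORA and was in 12.3% of all promoters. CCAATC lay 219 and 22 bases before the start of PORB and 13 bases before that of GUN4, and was in 10.2% of all promoters. The G-box CACGTG was 52 bases before the start of CRD1 and 52 and 32 bases before that of CAO, in 6.49% of all promoters. The CCA1 binding site AAAAATCT was 93 bases before GUN4 and 8 bases before CRD1, in 6.69% of all. CACGCGC, bound by FHY3 and FAR1, was in no member's window and in 1.06% of all; PORC had no match to any of the 6, and no match overlapped another. A match is a run of letters and was not tested as a binding site.

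Like the members other than PORA and PORB, PORC had its lowest levels in ein5-1 dcl4-2 and ski2-2 dcl4-2. It had 42.3 FPKM in ein5-1 dcl4-2 and 123 FPKM in ski2-2 dcl4-2, against 313 FPKM in Col-0. In the other 8 mutants it was between 175 FPKM in ein5-1 and 272 FPKM in dcl4-2, all below Col-0.

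PORA and PORB were far apart between the other mutants as well, by more than any of the genes above, of which CHLH varied most at 2.46-fold over the 9 genotypes other than ein5-1 dcl4-2 and ski2-2 dcl4-2. PORB had 1178 FPKM in ein5-1 dcl4-2 dcl2-1, 1099 FPKM in ein5-1 dcl2-1, 1403 FPKM in ski2-2 dcl2-1 and 1575 FPKM in dcl2-1, against 295 FPKM in Col-0. It had 15.9 FPKM in ski2-2 dcl4-2 dcl2-1, 14.4 FPKM in ein5-1 and 17.7 FPKM in ski2-2. It had 45.8 FPKM in ein5-1 dcl4-2, 166 FPKM in ski2-2 dcl4-2 and 332 FPKM in dcl4-2. The 4 genotypes of the first set were all above Col-0 and the 3 of the second set all below every other genotype, with 109.5-fold between the highest level, in dcl2-1, and the lowest, in ein5-1. The triple mutant ski2-2 dcl4-2 dcl2-1 was the only one of the 5 genotypes with dcl2-1 in which PORB was not above its level in Col-0.

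PORA, at far lower levels, put the genotypes in the same order from low to high as PORB, except that ski2-2 and ski2-2 dcl4-2 dcl2-1 changed places. It had 21.9 FPKM in ein5-1 dcl4-2 dcl2-1, 13.2 FPKM in ein5-1 dcl2-1, 26.2 FPKM in ski2-2 dcl2-1 and 33.9 FPKM in dcl2-1, against 7.05 FPKM in Col-0. It had 0.441 FPKM in ski2-2 dcl4-2 dcl2-1, 0.0573 FPKM in ein5-1 and 0.170 FPKM in ski2-2. It had 0.715 FPKM in ein5-1 dcl4-2, 1.02 FPKM in ski2-2 dcl4-2 and 7.84 FPKM in dcl4-2. The highest level was 590.5-fold the lowest, with 4 of the 11 levels under 1 FPKM.

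The make-up of POR transcripts changed with these levels. PORC supplied 91.8% of the summed POR FPKM in ski2-2 dcl4-2 dcl2-1, 92.4% in ein5-1 and 91.1% in ski2-2, against 50.9% in Col-0. PORB supplied 82.6% in ein5-1 dcl4-2 dcl2-1, 83.0% in ein5-1 dcl2-1, 84.7% in ski2-2 dcl2-1 and 85.2% in dcl2-1, against 47.9% in Col-0. In ein5-1 dcl4-2 and ski2-2 dcl4-2 the share of PORB was 51.6% and 57.2%, close to that of dcl4-2 at 54.3%, although the POR sum was 88.8 FPKM in ein5-1 dcl4-2 and 290.7 FPKM in ski2-2 dcl4-2, against 612 FPKM in dcl4-2 and 614 FPKM in Col-0. The sum was highest in dcl2-1, at 1849 FPKM. PORA never supplied more than 1.83%.

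**Figure D3:**
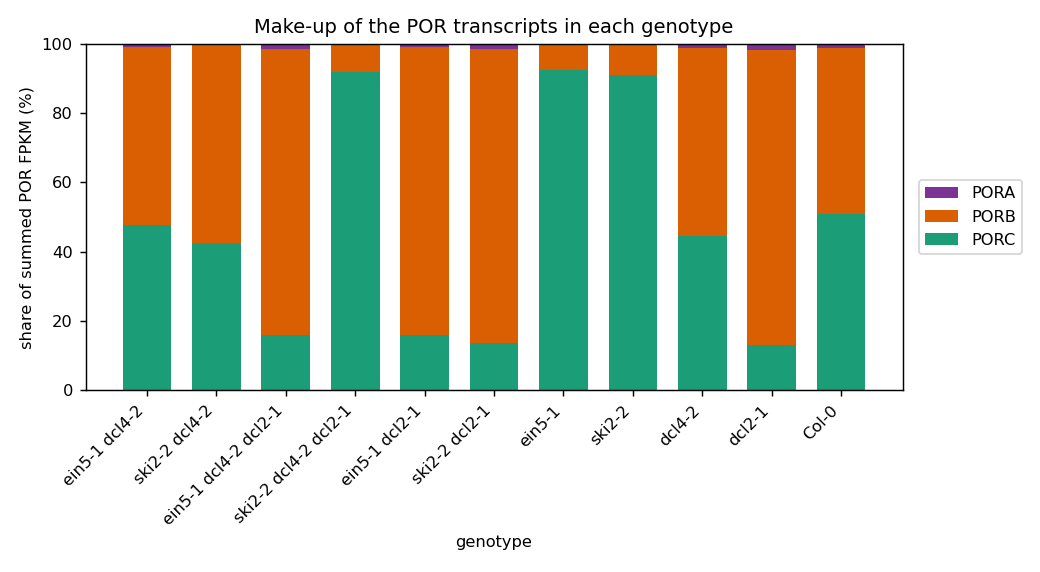
Share of the summed FPKM of PORA, PORB and PORC (vertical axis, percent) that each gene supplied in 11 genotypes. PORC is 91.1% or more of the bar in ski2-2 dcl4-2 dcl2-1 and in ein5-1 and ski2-2, and PORB is 82.6% or more in the other 4 genotypes that carry dcl2-1.

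Clock gene levels separated the 4 genotypes with the highest PORB from the 3 with the lowest, although every sample carried the same harvest hour. LHY, a transcription factor that peaks around dawn, had 1.66 to 3.57 FPKM in ein5-1 dcl4-2 dcl2-1, ein5-1 dcl2-1, ski2-2 dcl2-1 and dcl2-1, where PORB was highest. It had 188 to 232 FPKM in ski2-2 dcl4-2 dcl2-1 and in ein5-1 and ski2-2, where PORB was lowest. It had 148 FPKM in ein5-1 dcl4-2, 115 FPKM in ski2-2 dcl4-2 and 47.3 FPKM in dcl4-2, against 61.1 FPKM in Col-0. CCA1, its close relative, had 3.32 to 9.34 FPKM in the set of 4 and 165 to 180 FPKM in the set of 3, against 102 FPKM in Col-0. The order of PORA from low to high was the order of LHY from high to low, except that ein5-1 dcl2-1 and ein5-1 dcl4-2 dcl2-1 changed places. PRR5, which is expressed later in the day, had 15.1 to 31.1 FPKM in the first set of 4, 0.117 to 0.308 FPKM in the set of 3, and 11.9 and 12.7 FPKM in ein5-1 dcl4-2 and ski2-2 dcl4-2, against 0.391 FPKM in Col-0. ELF4, another clock gene, had 47.8 to 97.7 FPKM in the set of 4 and 1.98 to 3.90 FPKM in the set of 3. It had 81.6 FPKM in ein5-1 dcl4-2 and 47.4 FPKM in ski2-2 dcl4-2, against 3.77 FPKM in Col-0. PRR5 and ELF4 in these 2 mutants were thus near the set of 4, although PORA and PORB were below Col-0 there. In ein5-1 dcl4-2 and ski2-2 dcl4-2 LHY, PRR5 and ELF4 were all above Col-0, while CCA1, at 69.3 and 80.0 FPKM, was below it. The part of clock phase, harvest or growth conditions in the POR levels was not tested, and with 1 pooled value a genotype they cannot be told apart from genotype.

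**Figure D4:**
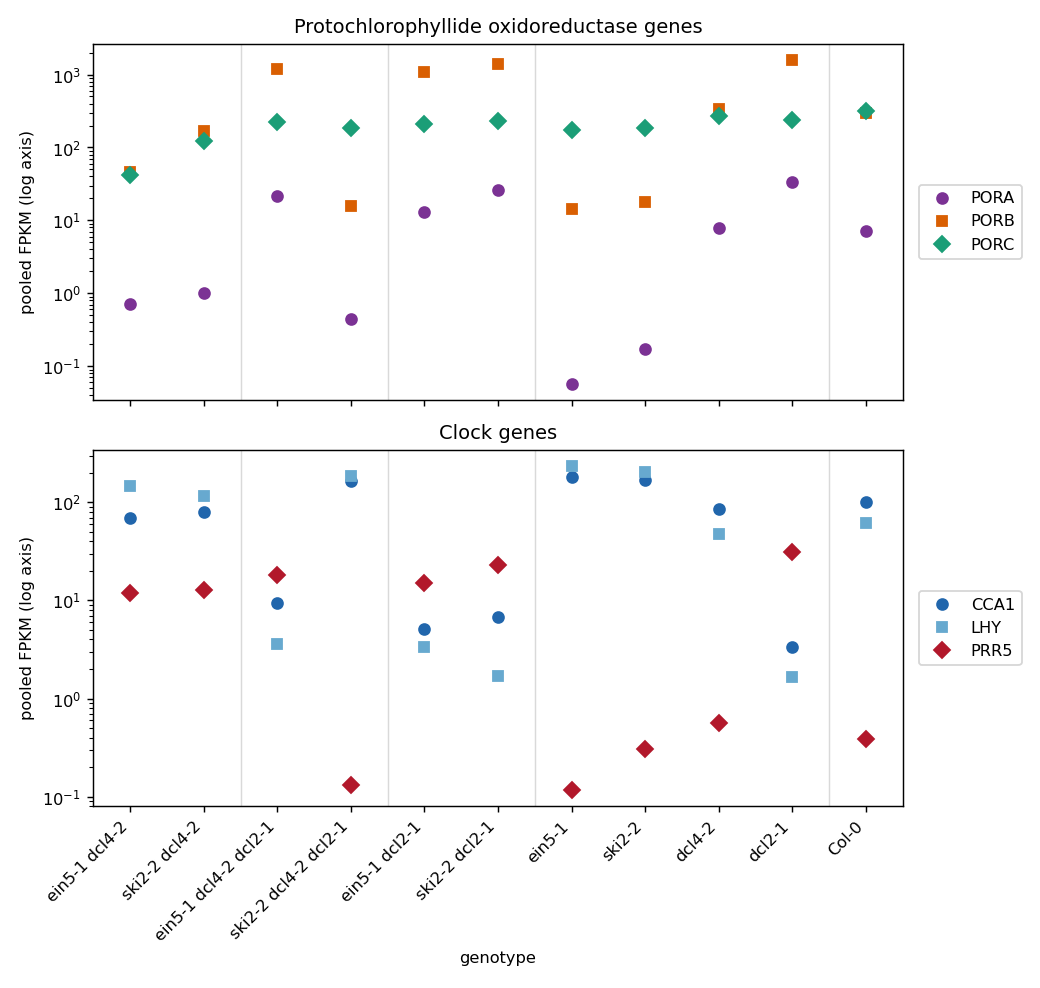
Pooled FPKM on log axes of PORA, PORB and PORC (top) and of the clock genes CCA1, LHY and PRR5 (bottom) in 11 genotypes. PORA and PORB are high where CCA1 and LHY are low, in the 4 genotypes other than ski2-2 dcl4-2 dcl2-1 that carry dcl2-1, and PORC stays between 42.3 and 313 FPKM.

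Most members also fell where dcl4-2 was added to a decay mutant, while PORB rose. In ein5-1 dcl4-2 relative to ein5-1, 8 of 10 fell and 1, PORB, rose, beside 14.4% of all genes that fell and 16.3% that rose. The falls were between 2.29-fold for CHLI1 and 5.39-fold for CHLH. PORB was at 45.8 FPKM in ein5-1 dcl4-2, against 14.4 FPKM in ein5-1, and PORA at 0.715 against 0.0573 FPKM, which was not called (the authors' deposited table gives a q of 1). In ski2-2 dcl4-2 relative to ski2-2, 6 of 10 fell and 2, PORA and PORB, rose, beside 13.5% and 14.2% of all genes. HEMA1 fell most, by 5.25-fold, while PORC and CAO had log2 ratios of -0.57 and -0.53 in the authors' deposited table and were not called. The rise of PORA, to 1.02 FPKM in ski2-2 dcl4-2 against 0.170 FPKM in ski2-2 (q of 0.0210 in the authors' deposited table), was lost when the size threshold was set on log2(FPKM + 1). With quantile normalization the falls of CHLI1 and CRD1 in this comparison were lost as well. The median difference in log2(FPKM + 1) over the members was -2.02 in the ein5-1 pair and -1.13 in the ski2-2 pair, against 0.07 and 0.02 over all genes. All 4 leaf markers fell, 2 root markers rose and 1 fell in ein5-1 dcl4-2 relative to ein5-1, and 3 leaf markers fell and 3 root markers rose in ski2-2 dcl4-2 relative to ski2-2; their part in the members' changes was not tested.

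Losing a decay factor in dcl4-2 gave nearly the values seen against Col-0, since the levels of the members in dcl4-2 were within 2-fold of those in Col-0. All 10 fell in ein5-1 dcl4-2 relative to dcl4-2, with a median of -2.62 in log2(FPKM + 1), beside 15.7% of all genes that fell and 19.7% that rose. In ski2-2 dcl4-2 relative to dcl4-2, 9 fell and none rose, with a median of -1.73, beside 13.1% and 14.7%. PORB was the exception, at 166 FPKM in ski2-2 dcl4-2 against 332 FPKM in dcl4-2, and its log2 ratio, -0.98 in the authors' deposited table, lay just short of the threshold. Against Col-0 the PORB ratio listed in the authors' deposited table was -0.81.

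Comparisons with dcl2-1 added ask whether the low levels are also seen without DCL2. All 10 members rose in ein5-1 dcl4-2 dcl2-1 relative to ein5-1 dcl4-2, beside 16.4% of all genes that rose and 19.1% that fell. The rises of the 8 genes other than PORA and PORB ran from 2.80-fold for GUN4 to 6.31-fold for HEMA1. PORA rose 30.6-fold, to 21.9 FPKM, and PORB 25.7-fold, to 1178 FPKM. In ski2-2 dcl4-2 dcl2-1 relative to ski2-2 dcl4-2, 6 members rose and 1 fell, beside 13.7% and 14.3% of all genes. HEMA1 rose 6.81-fold, CHLH 3.88-fold, CHLM 3.65-fold, GUN4 2.71-fold, CHLI1 2.62-fold and CRD1 2.47-fold. The rise of CRD1 was lost with quantile normalization. PORB fell 10.4-fold, to 15.9 FPKM in ski2-2 dcl4-2 dcl2-1, against 166 FPKM in ski2-2 dcl4-2. LHY was at 3.57 FPKM in ein5-1 dcl4-2 dcl2-1 against 148 FPKM in ein5-1 dcl4-2, and at 188 FPKM in ski2-2 dcl4-2 dcl2-1 against 115 FPKM in ski2-2 dcl4-2, the second not called. CCA1 fell in the first of these comparisons, where PRR5 and ELF4 were not called. In ski2-2 dcl4-2 dcl2-1 relative to ski2-2 dcl4-2, CCA1 rose and PRR5 and ELF4 fell. PORC, CAO and PORA did not pass, with log2 ratios of 0.57, 0.70 and -1.20 in the authors' deposited table, the last with a q of 0.0592.

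In the triple mutants the 8 genes other than PORA and PORB were within 2-fold of Col-0. Against Col-0, with no test, ein5-1 dcl4-2 dcl2-1 had 2 members higher, PORA and PORB, and none lower, beside 4.71% and 3.54% of all genes. The triple mutant ski2-2 dcl4-2 dcl2-1 had no member higher and 2 lower, again PORA and PORB, beside 2.84% and 2.64%. The difference for PORB was 2.00 in log2(FPKM + 1) in ein5-1 dcl4-2 dcl2-1 and -4.13 in ski2-2 dcl4-2 dcl2-1, both against Col-0. Median differences over the members were -0.37 and -0.51, so most of the 10 remained somewhat under Col-0. Leaf markers moved alongside: all 4 rose in ein5-1 dcl4-2 dcl2-1 relative to ein5-1 dcl4-2, and 3 of 4 rose in ski2-2 dcl4-2 dcl2-1 relative to ski2-2 dcl4-2; their part in the members' rise was not tested.

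Among the single mutants, compared by size alone, the decay mutants ein5-1 and ski2-2 had very low PORA and PORB, and dcl4-2 had levels like those of Col-0. In ein5-1 relative to Col-0, 3 members were lower (PORA, PORB and CHLI1) and none higher, beside 3.43% and 4% of all genes. CHLI1 was at 209 FPKM in ein5-1 against 428 FPKM in Col-0, and with quantile normalization it was within 2-fold. In ski2-2 relative to Col-0, 2 were lower (PORA and PORB) and none higher, beside 2.66% and 2.9%. PORB differed by -4.26 in ein5-1 and -3.98 in ski2-2, in log2(FPKM + 1) against Col-0. In dcl4-2 relative to Col-0 none was higher and none lower, beside 1.04% and 0.468%, with a median of -0.10.

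The genotypes with dcl2-1 and intact DCL4 all had PORB levels above Col-0, as did ein5-1 dcl4-2 dcl2-1. In dcl2-1 relative to Col-0, PORA and PORB were higher and CHLH and GUN4 lower, beside 5.09% of all genes higher and 4.16% lower. In ein5-1 dcl2-1 relative to Col-0, PORB was higher and CHLH lower, beside 5.64% and 4.89%. In ski2-2 dcl2-1 relative to Col-0, PORA and PORB were higher and none was lower, beside 4.99% and 4.04%, though CHLH was lower with median-of-ratios scaling. CHLH was at 428 FPKM in ein5-1 dcl2-1 and 469.6 FPKM in dcl2-1, against 1051 FPKM in Col-0. Adding dcl2-1 to a decay mutant gave 3 members higher and none lower in both cases, PORA, PORB and CHLI1. These counts stand beside 8.41% higher and 8.28% lower of all genes in ein5-1 dcl2-1 relative to ein5-1, and 7.96% and 7.58% in ski2-2 dcl2-1 relative to ski2-2. CHLI1 was at 488 FPKM in ein5-1 dcl2-1 against 209 FPKM in ein5-1, and at 502 FPKM in ski2-2 dcl2-1 against 219 FPKM in ski2-2. With quantile normalization its difference in ein5-1 dcl2-1 relative to ein5-1 was 0.95, short of the size threshold.

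The rest of the tetrapyrrole pathway was read from lists of other genes. In ein5-1 dcl4-2 relative to Col-0, 4 of 6 genes of ALA synthesis fell and none rose, and 8 of 10 genes of the porphyrin steps fell and none rose, beside 16.3% and 20.4% of all genes. Examples are GSA2, an aminotransferase that makes ALA, at 30.8 FPKM in ein5-1 dcl4-2 against 196 FPKM in Col-0, and HEME1, a uroporphyrinogen decarboxylase, at 24.4 against 149 FPKM. HEMB2 was listed at 0 in every genotype. Of 7 further genes of the magnesium branch 6 fell, led by DVR, which reduces the vinyl group of the chlorophyll precursor, at 12.9 FPKM in ein5-1 dcl4-2 against 123 FPKM in Col-0, and CHLP, which supplies the phytol tail, at 214 against 1654 FPKM. HCAR, which turns chlorophyll b back toward chlorophyll a, was not called.

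Most genes of the iron and sirohaem branches were not called. Of 9 genes there, 1 fell and 1 rose in ein5-1 dcl4-2 relative to Col-0, no larger a share than the 16.3% and 20.4% of all genes. FC2, a ferrochelatase, fell to 27.8 FPKM in ein5-1 dcl4-2 against 78.5 FPKM in Col-0. UPM1, which starts the sirohaem branch, rose to 167 FPKM in ein5-1 dcl4-2 against 23.0 FPKM in Col-0. Among the single mutants UPM1 was at 46.7 FPKM in ein5-1, 49.2 FPKM in ski2-2, 41.2 FPKM in dcl2-1 and 20.3 FPKM in dcl4-2. In ski2-2 dcl4-2 relative to Col-0 the counts that fell were 2 of 6 for ALA synthesis, 6 of 10 for the porphyrin steps, 4 of 7 for the further magnesium branch and 3 of 9 for the iron and sirohaem branches, where UPM1 rose, beside 13.8% of all genes that fell.

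With dcl2-1 added, the counts in these lists were as follows, and the difference between the ein5-1 and ski2-2 backgrounds was not tested. In ein5-1 dcl4-2 dcl2-1 relative to ein5-1 dcl4-2, 5 of 6 genes of ALA synthesis rose, 8 of 10 of the porphyrin steps and 6 of 7 of the further magnesium branch, beside 16.4% of all genes. In ski2-2 dcl4-2 dcl2-1 relative to ski2-2 dcl4-2 the counts were 1 (GBP), 2 (HEME1 and HEME2) and 0, near the 13.7% of all genes that rose. DVR was at 121 FPKM in ein5-1 dcl4-2 dcl2-1 against 12.9 FPKM in ein5-1 dcl4-2, and at 74.9 FPKM in ski2-2 dcl4-2 dcl2-1 against 43.2 FPKM in ski2-2 dcl4-2, which was not called.

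Of 12 regulators 2 rose and 3 fell in ein5-1 dcl4-2 relative to Col-0, shares near the 20.4% and 16.3% of all genes, so the counts are no result about regulators. PIF3, a factor known to hold back chlorophyll genes in the dark, rose to 30.5 FPKM in ein5-1 dcl4-2 against 5.13 FPKM in Col-0, and to 23.6 FPKM in ski2-2 dcl4-2. GLK2, an activator of chlorophyll and antenna genes, fell to 56.2 FPKM in ein5-1 dcl4-2 and 67.9 FPKM in ski2-2 dcl4-2, against 171 FPKM in Col-0. The other 2 that fell in ein5-1 dcl4-2 were PIF4 and GNC. PIF4 was at 26.1 FPKM there against 59.4 FPKM in Col-0, and GNC at 19.0 against 42.1 FPKM. HY5, a light-signalling factor, rose to 32.7 FPKM in ein5-1 dcl4-2 against 15.5 FPKM in Col-0, and its levels in ein5-1 and ski2-2 were as high, at 31.3 and 30.6 FPKM. Of 8 breakdown genes 5 rose and none fell in ein5-1 dcl4-2 relative to Col-0, beside the same 20.4% and 16.3%: SGR2, SGR1, PPH, NYC1 and PAO. SGR1 removes magnesium from chlorophyll and SGR2 is its close relative; SGR2 had 37.4 FPKM in ein5-1 dcl4-2 against 0.742 FPKM in Col-0. In ski2-2 dcl4-2 relative to Col-0 1 breakdown gene rose, SGR2 at 6.54 FPKM, and 2 fell, NOL and CLH1, beside 15.1% and 13.8% of all genes.

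**Figure D5:**
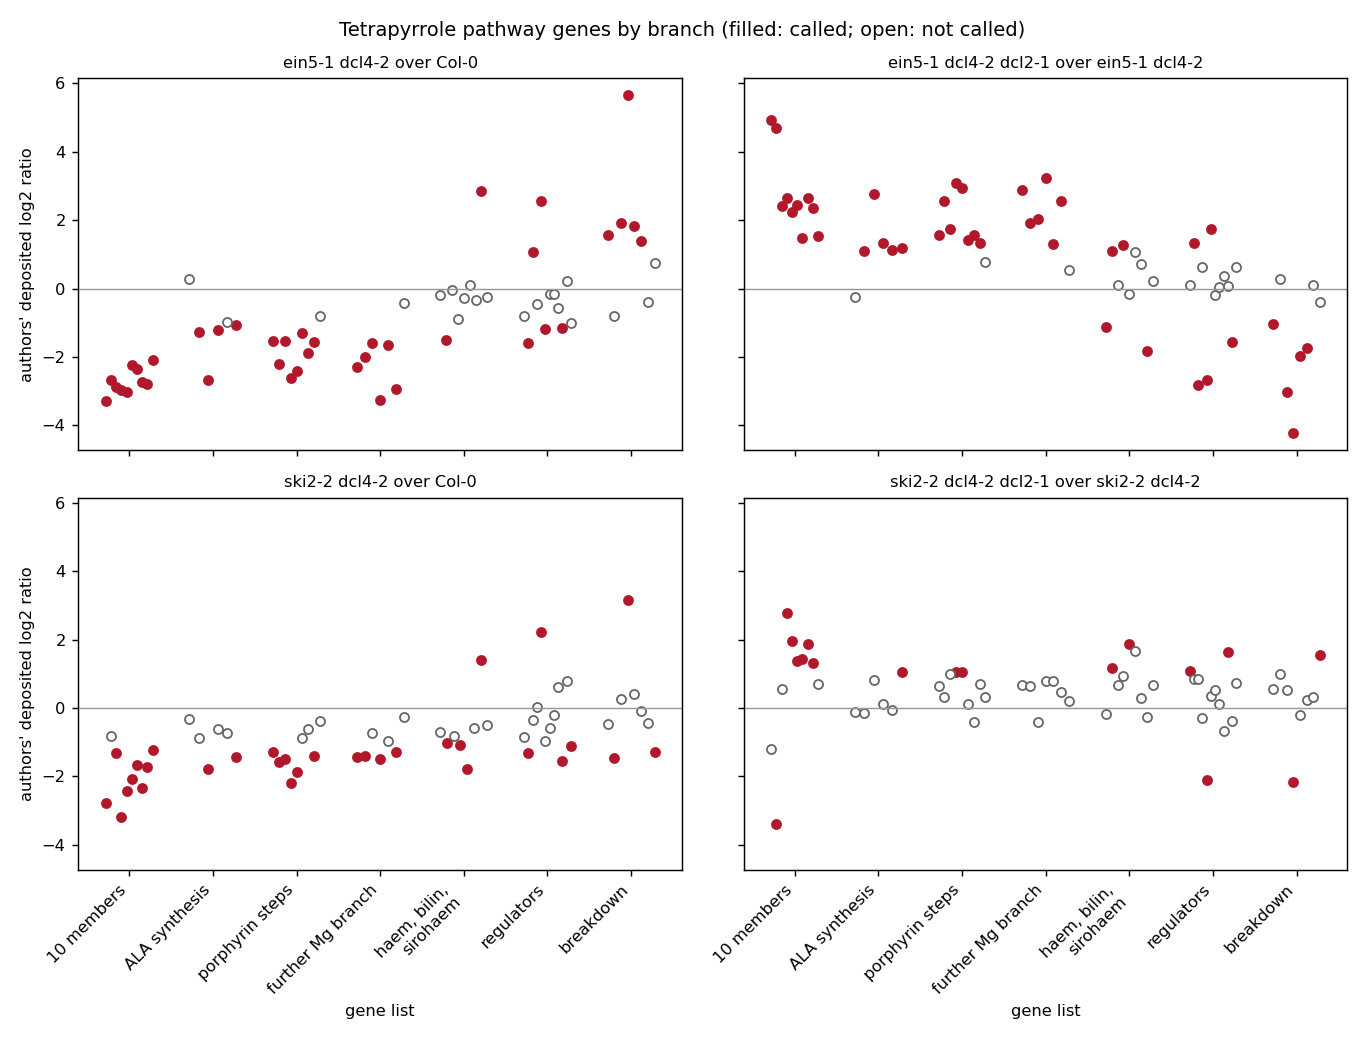
Log2 ratio in the authors' deposited table (vertical axes) for the 10 members and 6 lists of other tetrapyrrole genes. Each point is a gene that reached 1 FPKM in a compared genotype, filled where the gene rose or fell and open where it was not called. In the upper left panel (ein5-1 dcl4-2 over Col-0) the members and the ALA, porphyrin and magnesium lists lie mostly below 0 and breakdown genes mostly above it; the lower right panel (ski2-2 dcl4-2 dcl2-1 over ski2-2 dcl4-2) has the fewest filled points.

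The genes whose profile was most like the mean of the 10 members, by Pearson's r of log2(FPKM + 1) over 11 genotypes among 16675 genes, were BBX27, a B-box protein gene (r = 0.996), AT2G24060 (r = 0.995), the plastid ribosomal protein gene RPL9 (r = 0.994), PDE318 (r = 0.992) and the plastid ribosomal protein gene PSRP2 (r = 0.992). All 5 were lowest in ein5-1 dcl4-2; BBX27 had 2.62 FPKM there and 34.7 FPKM in dcl2-1, where it was highest. None of the 5 was among the first 5 by Spearman's rho. The 11 points share alleles, fall into the sets described above and differ in FPKM sum, so these values are descriptions. With PORA and PORB left out, a choice made after seeing the data, the 5 genes were LHCB2.3, PHR2, FBP, AAE14 and HCEF1, again all lowest in ein5-1 dcl4-2, and LHCB2.3, an antenna protein gene, had 80.6 FPKM there against 3600 FPKM in Col-0. None of these 5 was among the first 5 by rho either, with ranks from 6 for LHCB2.3 to 231 for HCEF1. For PORA and PORB alone the 5 genes by r were AMY3 (r = 0.994), Fes1B, AT1G70820, AT1G03230 and SCPL13, and AMY3, a plastid amylase gene, had 13.8 FPKM in ein5-1 and 132 FPKM in dcl2-1. Of these, AMY3, Fes1B and AT1G03230 were among the first 5 by rho, and AT1G70820 and SCPL13 were not.

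Of the 10 members, 7 overlap a gene on the opposite strand in TAIR10.1, and the labels do not say whether reads were assigned by strand. GUN4 shares 946 bases with AT3G59410, which was at 2.77 to 10.8 FPKM. CRD1 shares 147 bases with AT3G56950, at 22.4 to 89.5 FPKM, and 259 bases with AT3G08795, which is not used here. PORB, PORC, CHLI1, CHLM and CAO share between 36 and 121 bases with a neighbour, the highest of which was at 30.5 FPKM. Among partners with a level here, the highest level of each was under the lowest level of the member it overlaps, except for AT4G27450, whose highest level was above that of PORB in ein5-1 and ski2-2 and in the triple mutant ski2-2 dcl4-2 dcl2-1.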

How the data were processed

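Per the labels, poly(A) RNA libraries were made with an Illumina kit from aerial parts, 3 per genotype, and per the submitters' processing notes reads were aligned to TAIR10 with TopHat2 2.1.1 and quantified with Cuffdiff, whose version is not given in the sources used here. FPKM values in the deposited table are the authors' pooled values, 1 per gene and genotype. The log2 ratios, p-values and q-values in the deposited table are the authors', for 8 comparisons. The labels do not say what separates the replicates of a genotype, so these p-values measure at most the spread between these samples. Values per library, and so read depth and precision, are unknown: the planned limma fit could not be made, and the written fallback of using the authors' q was followed. Columns of unmatched samples numbered 0.

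Across all genes, calls required q of 0.05, a log2 ratio of 1 and 1 FPKM in a compared genotype. Untested comparisons used differences in log2(FPKM + 1), which understate changes of low genes. All 10 members are named, up to 4 called genes of each other list by size of change, and the 5 genes most like the members' mean profile among genes with 5 FPKM in a genotype. Breakdown genes and regulators called in ein5-1 dcl4-2 relative to Col-0 were named in full after their values were seen. Clock genes and markers are given for context. The members and lists were chosen with earlier results of these data known. Gene models and sequences are from RefSeq TAIR10.1; names matched 32810 of 33557 identifiers. The software was numpy 2.4.6, pandas 2.3.3, matplotlib 3.10.9 and Python 3.11.15, and the code was tested on simulated data. Alternatives were another pseudocount (0.1), FPKM minimum (5 or none), size rule and scaling.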

Additional observations from a re-analysis of the deposited data

Results flagged for a closer look

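PORB moved in opposite directions when dcl2-1 was added to ein5-1 dcl4-2 and to ski2-2 dcl4-2. In the authors' deposited table its log2 ratio was 4.68 in ein5-1 dcl4-2 dcl2-1 over ein5-1 dcl4-2, and -3.38 in ski2-2 dcl4-2 dcl2-1 over ski2-2 dcl4-2. Both passed the authors' test, but the difference between them was not tested. The levels were 1178 FPKM in ein5-1 dcl4-2 dcl2-1 against 45.8 FPKM in ein5-1 dcl4-2, and 15.9 FPKM in ski2-2 dcl4-2 dcl2-1 against 166 FPKM in ski2-2 dcl4-2. The clock gene LHY fell where PORB rose: it was at 3.57 FPKM in ein5-1 dcl4-2 dcl2-1 against 148 FPKM in ein5-1 dcl4-2. Its 188 FPKM in ski2-2 dcl4-2 dcl2-1, against 115 FPKM in ski2-2 dcl4-2, was not called a change. The other clock genes were called in that comparison. CCA1 rose to 165 FPKM, against 80.0 FPKM in ski2-2 dcl4-2. PRR5 fell to 0.133 FPKM against 12.7 FPKM, and ELF4 to 1.98 FPKM against 47.4 FPKM. In ein5-1 dcl4-2 dcl2-1 relative to ein5-1 dcl4-2, CCA1 fell to 9.34 FPKM against 69.3 FPKM, and PRR5 and ELF4 were not called. The part of the clock, or of when and how each genotype was grown, in the PORB levels was not tested. Adding dcl4-2 to ein5-1 or to ski2-2 gave no member opposite calls in the 2 backgrounds.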

How the results depend on the processing

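No paired analysis was possible because the table gives 1 pooled value per genotype, and for the same reason no replicate could be left out. No called value of a member changed direction under the alternatives run. The number of members that rose in ski2-2 dcl4-2 over ski2-2 was 1 in place of 2, without PORA, under the log2(FPKM + 1) difference, quantile normalization, median-of-ratios scaling and a minimum of 5 FPKM. The number lower by size in ski2-2 dcl2-1 over Col-0 was 1, CHLH, in place of 0 under median-of-ratios scaling. Quantile normalization took PORC, CRD1 and CAO under the size threshold in ski2-2 dcl4-2 over Col-0, at -0.93, -0.93 and -0.88, leaving 6 members that fell; it left 6 in ski2-2 dcl4-2 over dcl4-2, 4 in ski2-2 dcl4-2 over ski2-2, and 5 that rose in ski2-2 dcl4-2 dcl2-1 over ski2-2 dcl4-2. The cause was not tested. Other counts of members stayed within 1.5 times the reported ones under each alternative run, and median differences moved by less than 1.5-fold. The median of all genes was 0.13 in ein5-1 dcl4-2 over Col-0 and -0.08 after quantile normalization, and all 10 members fell under both. Depth is unknown, so levels of PORA under 1 FPKM carry no stated precision.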
